A study of Mus musculus with 24 samples.

Results

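The comparison set bone marrow-derived macrophages (BMDMs) given interleukin 4 (IL4) against BMDMs given lipopolysaccharide (LPS), both from wild-type (WT) mice, with 3 RNA sequencing libraries on each side. It used 6 of the 24 libraries of the series, and every gene that reached a value of 1 in 3 or more libraries, which were 18637 of the 43629 gene identifiers in the table. BMDMs are macrophages grown in culture from bone marrow, here of C57BL/6 mice at postnatal week 10, and all groups of the series share that strain and age. The other groups were untreated WT controls (3 libraries), WT cells with interferon gamma, and cells lacking CITED2 (KO) in the same 4 states; the series asked what CITED2, a transcriptional co-regulator, does in the macrophage inflammatory response. Doses, treatment times, the way the deletion was made and whether replicates were separate animals or cultures are not given in the sources used here. The p-values and SEs rest on the spread between replicate libraries, which the fit pooled over all 24 libraries and not only the 6 compared. That spread may be technical.

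IL4 and LPS are the textbook stimuli of alternative and classical macrophage activation. IL4 binds a receptor that signals through JAK kinases and the transcription factor STAT6, and raises enzymes and receptors tied to tissue repair and defence against worms. LPS, a component of the bacterial outer membrane, binds TLR4 with its co-receptors CD14 and MD-2, and signals to NF-kB and to the secretion of type I interferon, which raise cytokines, chemokines and antiviral proteins.

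The 6 libraries held between 7921412 reads (LPS replicate 1) and 50223251 reads (LPS replicate 2), and the 3 IL4 libraries between 20466925 and 33852471. Genes with at least 1 read numbered 13992 to 17497. A floor of 3 reads over a group corresponded to a value of 0.660 for IL4 and 1.13 for LPS; floors cover counting error only. The replicates of a group were not copies of one another: a chi-square statistic on the reads of each pair, divided by its degrees of freedom, lay between 3.14 and 3.74 within IL4 and between 10.2 and 24.5 within LPS. Macrophage markers were present on both sides, with Csf1r, the receptor for the growth factor that sustains these cells, at 61578 ± 213 with IL4 and 34629.6 ± 1718 with LPS, and Cd68 at 41914 ± 366 and 45764 ± 4015. These and all values below are normalised read counts given as mean ± SD with n = 3, or as the values of replicates 1, 2 and 3. They are not corrected for transcript length, so levels of different genes are not compared. Differences are log2(value + 1) with IL4 minus the same with LPS, so that a positive difference means higher with IL4. Their errors are the SE of the fit, and p-values are limma's after Benjamini-Hochberg adjustment over all 18637 genes, with a gene called at an adjusted p below 0.05. In bulk RNA, fewer cells of a kind and less RNA per cell cannot be told apart.

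The promoters of 4 genes are printed as examples that do carry a match to sequences of the kind that the transcription factors named above are known to bind; they were chosen for having one. Each line gives the 250 bases before the RefSeq transcription start (build GRCm38.p6), 5′ to 3′ on the strand of the gene, with matches to any of the searched motifs in capitals. For Retnla (chr16:48842359-48842608, plus strand) the capitals mark a STAT6-type match whose first base is 145 bases before the start. For Pdcd1lg2 (chr19:29410669-29410918, plus strand) they mark a STAT6-type match 82 bases before the start. For Il6 (chr5:30012864-30013113, plus strand) they mark a kB-type match 44 bases before the start, and for Cxcl10 (chr5:92348890-92349139, minus strand) an ISRE-type match at 213 and a kB-type match at 159 bases.
Retnla: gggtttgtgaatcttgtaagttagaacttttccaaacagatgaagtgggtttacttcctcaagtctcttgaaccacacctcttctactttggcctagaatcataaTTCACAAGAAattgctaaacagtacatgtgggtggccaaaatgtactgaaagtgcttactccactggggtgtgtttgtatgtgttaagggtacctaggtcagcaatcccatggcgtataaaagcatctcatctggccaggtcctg
Pdcd1lg2: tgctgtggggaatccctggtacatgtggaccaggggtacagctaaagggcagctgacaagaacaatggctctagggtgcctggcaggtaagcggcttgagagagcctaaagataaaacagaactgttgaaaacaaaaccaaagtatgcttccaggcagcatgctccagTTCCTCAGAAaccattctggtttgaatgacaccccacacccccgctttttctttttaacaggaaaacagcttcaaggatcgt
Il6: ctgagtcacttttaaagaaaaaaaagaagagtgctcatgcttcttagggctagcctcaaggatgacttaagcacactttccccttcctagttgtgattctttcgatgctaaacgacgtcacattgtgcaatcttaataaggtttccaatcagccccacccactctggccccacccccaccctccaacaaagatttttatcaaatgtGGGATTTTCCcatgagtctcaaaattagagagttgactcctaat
Cxcl10: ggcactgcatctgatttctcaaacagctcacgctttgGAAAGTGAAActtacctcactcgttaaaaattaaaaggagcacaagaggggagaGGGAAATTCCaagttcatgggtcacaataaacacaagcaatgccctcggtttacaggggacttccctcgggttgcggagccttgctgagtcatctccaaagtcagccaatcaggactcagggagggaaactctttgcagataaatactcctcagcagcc

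The search covered 4 motifs on both strands of windows from 250 bases before to 50 after the start: TTC and GAA with 4 free bases between them (STAT6-type), TTCNNNGAA (GAS-type, bound by other STATs), GGGA and TTCC with 2 free bases between them (kB-type), and GAAA repeated after 2 free bases (ISRE-type, bound by interferon-activated complexes). Matches of different motifs may overlap. Windows were found for 11928 of the 18637 genes tested, 15149 in all. The ISRE-type motif stood in 12.7% of the 629 windows of genes at least 8-fold lower with IL4, in 1.67% of the 360 windows of genes at least 8-fold higher, and in 3.35% of all windows of tested genes. The kB-type motif stood in 3.34%, 0.833% and 1.53% of the same windows, and the GAS-type motif in 11.3%, 7.22% and 7.02%. The STAT6-type motif stood in 5.88%, 6.39% and 5.66%, which are near each other. Most named genes had no match: among the 8 genes with the largest differences toward IL4, 7 had a window and 2 of these held the STAT6-type motif, and among the 8 toward LPS, 6 had a window, of which 2 held the kB-type, 2 the ISRE-type and 1 the STAT6-type motif. Some windows of named genes were left out of these counts but not of the shares above. A gene counted here as without a window may therefore have one. The windows of Mrc1, Il12b, Il1b, Ptgs2, Tnf, Irg1 and Cnr2 held none of the motifs. Ifi205 and Ifit2, both on the LPS side, held the STAT6-type. These shares are descriptions of letters in a window and were not tested.

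Of the 18637 genes, 9774 (52.4%) were called, 5121 (27.5%) higher with IL4 and 4653 (25%) lower. At least a 2-fold difference was called for 2844 genes (15.3%) higher and 2539 (13.6%) lower with IL4. The balance turned toward LPS as the difference grew: 349 genes (1.87%) were at least 8-fold higher with IL4 and 693 (3.72%) at least 8-fold lower, 35 against 205 at 32-fold, and 1 against 45 at 256-fold. No gene was 1024-fold higher with IL4 by this fit, and 9 were 1024-fold lower. The values of the 2 groups did not overlap for 11071 genes (59.4%). Against the WT controls, by the same fit, 3749 genes (20.1%) were called with IL4 and 9942 (53.3%) with LPS; these comparisons share the 3 control libraries.

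The split between higher and lower calls rests on the scaling. The deposited values of an LPS library summed to 1.68 times those of an IL4 library. Setting the library medians equal moved the median difference of all genes by -0.41 and gave 2956 higher and 6670 lower (30.7% of calls higher, against 52.4% as deposited). Setting the library totals equal moved it by 0.56 and gave 9338 and 2399 (79.6% higher). Of the 5383 calls of at least 2-fold, 4875 and 5136 kept their direction and call under these 2 scalings. Differences smaller than these shifts can change sign with the scaling.

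**Figure D1:**
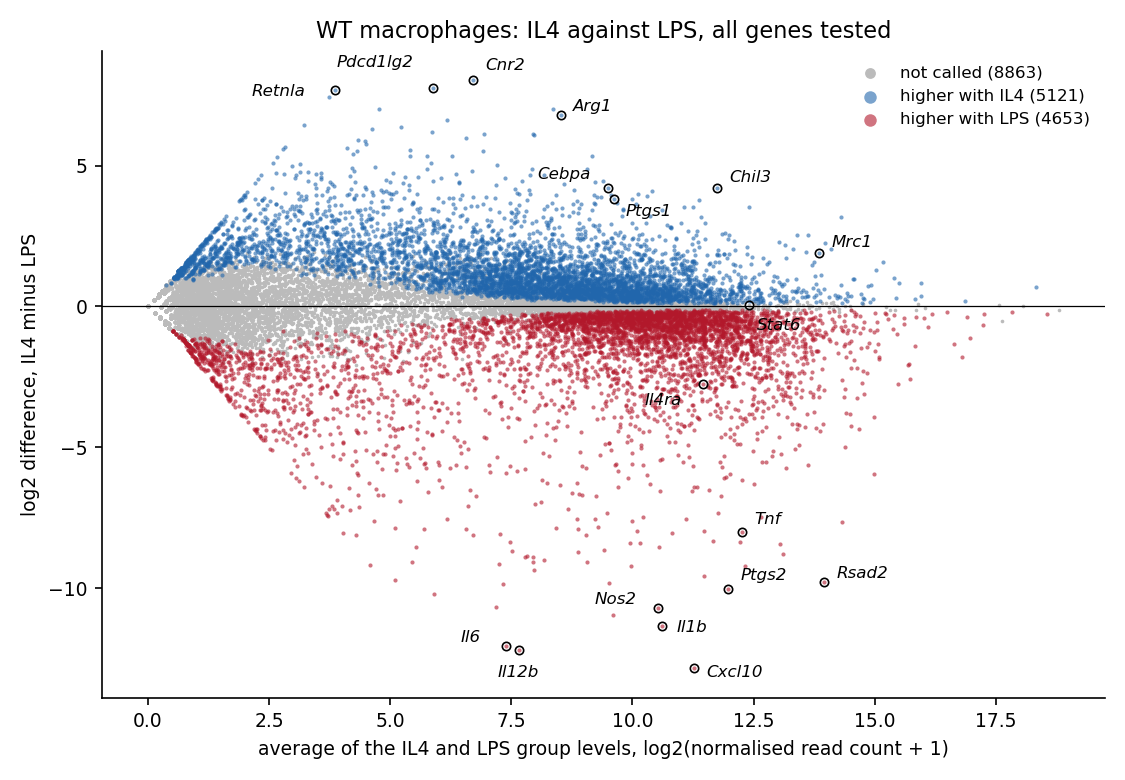
Each point is 1 of the 18637 genes tested, with the average of the IL4 and LPS group levels across (log2 of the normalised read count plus 1) and the log2 difference, IL4 minus LPS, upward; blue and red mark genes called higher with IL4 (5121) and with LPS (4653). The points reach 8.04 (Cnr2) upward and -12.85 (Cxcl10) downward, and Stat6 lies near 0.

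Secreted signals lay almost all on the LPS side. Of 29 inflammatory cytokines and growth factors tested, 27 were lower with IL4 and 1 was higher. The median difference was -5.68 beside 0.08 over all genes, of which 25% were lower and 27.5% higher. Among protein-coding genes alone 30.1% were lower and 32.5% higher. Counts of list members here and below stand beside these shares. A side near its share says nothing particular to the list. The shares hold for the deposited scaling only. Il12b, a subunit of the T cell-polarising cytokine IL-12, was 1.15, 2.86 and 1.88 with IL4, 13619, 13360.1 and 13864 with LPS and 0.539, 0 and 7.33 in controls. IL4 values lay within the range of the controls and LPS values far above both; the difference was -12.21 ± 0.48 (adjusted p = 7.2e-17). Il6, which encodes a fever and acute phase cytokine, was 1.15, 2.86 and 0.942 with IL4 against 10505, 10163 and 11491 with LPS, a difference of -12.05 ± 0.48 (adjusted p = 9.9e-17). Il1b, the precursor of interleukin 1 beta, was 39.2, 25.2 and 25.4 against 78724, 80185 and 78569 (-11.35 ± 0.32, adjusted p = 7.8e-20). All 3 genes had no overlap between the groups. Tnf, which encodes tumour necrosis factor, was 304 ± 14.5 against 78574 ± 2179.7 (-8.01 ± 0.089). The anti-inflammatory Il10 stood on the same side, at 9.08 ± 0.944 against 4827 ± 467 (-8.90 ± 0.48), as did Il1rn, the interleukin 1 receptor antagonist (479 ± 18.4 against 85896 ± 5179, -7.48 ± 0.067). Csf1, the macrophage growth factor, was 353 ± 11.4 against 10026 ± 139 (-4.82 ± 0.066). The single member higher with IL4 was Igf1, insulin-like growth factor 1, at 35784, 34794 and 35623 with IL4, 8247, 8142 and 9649 with LPS and 12201, 13250.1 and 11646 in controls (2.03 ± 0.065, adjusted p = 1.1e-18). IL4 was thus above and LPS below the control libraries for Igf1, with no overlap.

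Chemokines, the proteins that attract leukocytes, followed the cytokines: 20 of 25 were lower with IL4 and 1 was higher (median -3.79). Cxcl10, which attracts T cells and whose promoter carries the ISRE-type and kB-type letters printed above, had the most negative difference of the genes named here. It was 27.1, 25.7 and 30.1 with IL4, 203678, 205988 and 226013 with LPS and 34.5, 43.9 and 103 in controls, a difference of -12.85 ± 0.22 (adjusted p = 4.6e-24). With IL4 it was lower than in controls by the fit (-0.94, adjusted p = 0.0024, all 3 IL4 values lying below the controls). The neutrophil attractant Cxcl2 was 76.6 ± 10.4 against 29102 ± 616 (-8.56 ± 0.12) and the monocyte attractant Ccl2 160.2 ± 24.5 against 30111 ± 849.8 (-7.56 ± 0.15). Several chemokines were above control on both sides. Ccl5 was 2586 ± 256 with IL4 and 47938 ± 2741 with LPS, from 34.3 ± 11.2 in controls. Ccl22 and Ccl24, both often used as marks of IL4 exposure, were lower with IL4 than with LPS: Ccl22 was 202, 178 and 193 with IL4, 978, 931 and 829 with LPS and 4.85, 5.16 and 2.44 in controls (-2.25 ± 0.34, adjusted p = 4.7e-06), and Ccl24 was 54.8, 45.8 and 54.6, 143, 179 and 149 and 2.16, 0.645 and 0 (-1.58 ± 0.39, adjusted p = 0.0015). Ccl17 was 12.1, 22.3 and 10.4 with IL4 and 12.2, 16.5 and 15.5 with LPS, at overlapping values (difference -0.044, adjusted p = 0.98). Ccl6 was the member higher with IL4, at 10469 ± 236 against 5566 ± 224 (0.91 ± 0.08; 0.50 with medians and 1.66 with totals set equal). Of 15 chemokine receptors, 3 were higher with IL4 and 8 lower, a split that was even, at 5 and 5, with library totals set equal. Cxcr4, the receptor that holds cells in bone marrow, was 4846, 5084 and 4703 with IL4, 269, 342 and 356 with LPS and 9528, 9369.8 and 9455 in controls (3.92 ± 0.11); it was below control in both.

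**Figure D2:**
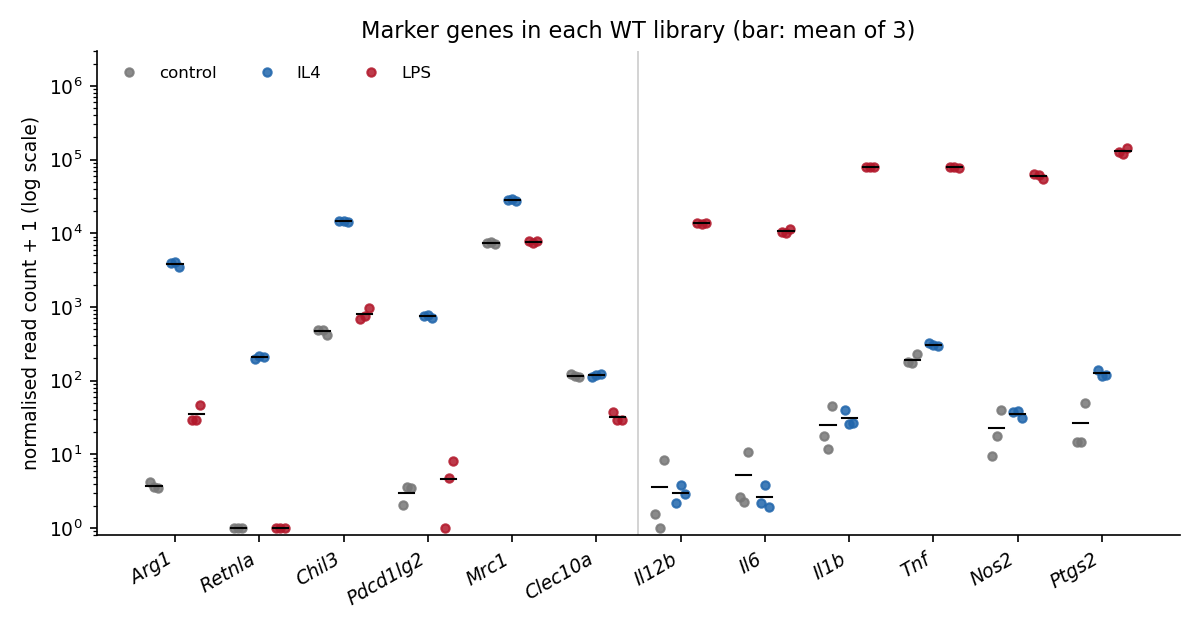
Normalised read count plus 1 on a log scale for 12 marker genes of the 2 activation states in each WT library, with controls in grey, IL4 in blue and LPS in red, and a bar at the mean of 3. For the 6 genes on the right every LPS library lies above every IL4 and control library, while Arg1, Retnla, Chil3, Pdcd1lg2 and Mrc1 on the left have their IL4 libraries on top and Clec10a has IL4 at the level of the controls.

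The machinery that receives and relays LPS was itself higher with LPS at many points. Of 26 genes of Toll-like receptor signalling, 18 were lower with IL4 and 5 higher (median -1.02; 15 and 8 with totals set equal). Cd14, which hands LPS to its receptor, was 2388 ± 55.4 with IL4 and 42771 ± 2096 with LPS (-4.16 ± 0.061). Tlr2, the receptor for bacterial lipoproteins, was 1408 ± 3.91 against 52853 ± 1966 (-5.23 ± 0.053). The LPS receptor Tlr4 was not among these: it was 4458, 4279 and 4236 with IL4 and 3289.7, 2968 and 3681 with LPS, a difference of 0.39 ± 0.092 that was -0.021 with medians set equal and 1.14 with totals set equal. Tlr13, a receptor for bacterial ribosomal RNA, was higher with IL4, at 6576 ± 88.3 against 1795 ± 101 (1.87 ± 0.08). Of 19 NF-kB subunits and inhibitors, 18 were lower with IL4 and 1 higher (median -2.77). Members included the subunit gene Nfkb1 (3769 ± 15.7 against 34721 ± 1417) and the inhibitors Nfkbia (1572 ± 74.0 against 30797 ± 719) and Tnfaip3 (2036 ± 26.3 against 61338 ± 2451).

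All 36 type I interferon and antiviral genes were lower with IL4, each by at least 2-fold (median -4.46). Their reads made up between 0.224% and 0.229% of an IL4 library and between 5.69% and 6.12% of an LPS library. Rsad2, which encodes the antiviral enzyme viperin, was 525, 541 and 529 with IL4, 465551, 441718 and 509556 with LPS and 601, 702 and 601 in controls (-9.79 ± 0.088, adjusted p = 5.9e-29). Ifit2, which binds viral RNA, was 1451 ± 75.4 against 289790.2 ± 31105 and Cmpk2, a mitochondrial nucleotide kinase, 415 ± 25.8 against 184935 ± 15405. These genes were not uniformly at control level with IL4: by the fit, 25 of the 36 were above control with IL4 and 4 below (10.6% and 9.56% of all genes), with a median of 0.53 over control, where LPS stood 5.09 over control. Isg15, a ubiquitin-like antiviral protein, was 459, 476 and 503 with IL4 and 126, 174 and 149 in controls. The 24 interferon-gamma GTPases and targets were also all lower with IL4 (median -4.30), from Gbp5 at -9.23 ± 0.12 to Tapbp at -0.85 ± 0.05 (-0.10 with totals set equal, where it was no longer called). Gbp2, a guanylate-binding protein that attacks pathogen vacuoles, was 5363, 5367 and 5400.4 with IL4, 102037, 99162 and 107277 with LPS and 517, 562 and 359 in controls, so that both treatments lay above control. With totals set equal 22 of the 24 stayed called and lower.

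The 40 genes of the IL4 alternative activation list included 37 that were tested. Among these, 22 were higher with IL4 than with LPS, 9 were lower and 6 did not pass (median 1.89). Over all genes, 27.5% were higher and 25% lower. Against control, 33 of the 37 were higher with IL4 (10.6% of all genes were), and 19 of the same 37 were higher with LPS (25.5% of all genes). Arg1 (ENSMUSG00000019987; GRCm38 chromosome 10, 24915221 to 24927484, minus strand), the enzyme that splits arginine to ornithine and urea, was 3908, 4078 and 3539 with IL4, 28.5, 28.5 and 45.2 with LPS and 3.23, 2.58 and 2.44 in controls. The groups did not overlap, and the difference from LPS was 6.81 ± 0.47 (adjusted p = 5.9e-12). Retnla (ENSMUSG00000061100; GRCm38 chromosome 16, 48842551 to 48844461, plus strand), a secreted resistin-like protein, was 198, 215 and 209 with IL4 and had no read in any LPS or control library, so that it was at least 184-fold higher with IL4, taking 3 reads over the LPS group as the floor. Chil3, a chitinase-like lectin, was 14798, 14882 and 14419.6 with IL4, 685, 753 and 959 with LPS and 493, 493 and 420.1 in controls (4.21 ± 0.099, adjusted p = 2.3e-21). For Chil3, LPS too lay above control, without overlap. Pdcd1lg2, a ligand of the T cell checkpoint receptor PD-1, was 750.0, 778 and 697 with IL4 and 0, 3.80 and 7.14 with LPS (7.77 ± 0.63, adjusted p = 1.1e-10). Mrc1, the mannose receptor, was 28349.6, 29489 and 27261 with IL4 and 7851, 7304 and 7918 with LPS, near the control values of 7291, 7682 and 7066 (1.88 ± 0.078, adjusted p = 2e-16). Clec10a, a galactose-type lectin, differed from LPS by 1.89 ± 0.66 (adjusted p = 0.018) at 111, 118 and 122 with IL4 and 36.7, 27.9 and 28.6 with LPS. The control values of Clec10a were 122, 116 and 109.9, so IL4 libraries lay at control and LPS libraries below it. The call was lost with medians set equal (1.48, adjusted p = 0.072). Its close relative Mgl2 was 117, 115 and 105, 0, 2.53 and 2.38 and 1.62, 1.93 and 0 in IL4, LPS and control libraries.

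The 9 members of this list that were lower with IL4 than with LPS were Cd83, Tgm2, Ccl22, Kcnn4, Ccl24, Slc7a2, Cish, Mmp12 and Klf4. All but Mmp12 were above control with IL4 in mean value. Slc7a2, a transporter of cationic amino acids including arginine, was 17896, 17689 and 17718 with IL4, 45456, 47333 and 53439 with LPS and 341, 402 and 322 in controls (-1.45 ± 0.088, adjusted p = 4.7e-13). Each treated library of Slc7a2 was above every control, and each LPS library above every IL4 library. Tgm2, a protein cross-linking enzyme, was 3099 ± 82.4, 17868 ± 1625 and 1152 ± 67.3, and Cish, a feedback inhibitor of cytokine receptors, 239 ± 14.8, 479 ± 70.1 and 1.69 ± 1.92, in the same order. Il4i1, an amino acid oxidase named after its response to IL4, was 678, 632 and 669.9 with IL4 and 852, 768 and 593 with LPS, a difference of -0.14 that did not pass (adjusted p = 0.76), with controls at 7.55, 3.87 and 12.2. Socs2, another feedback inhibitor, was 106 ± 8.33 and 127 ± 4.37 (adjusted p = 0.52) from 8.44 ± 5.41 in controls. With medians set equal the list counted 20 higher and 9 lower, and with totals set equal 24 and 5. Cish also lost its call without WT LPS replicate 2, WT IL4 replicate 2 or WT IL4 replicate 3 (-0.97 to -0.89). Ccl24, Cish, Mmp12 and Klf4 were the 4 that lost the call with totals set equal, where Klf4 lay at 0.16.

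Genes of the IL4 receptor and its relay were called in both directions, beside 27.5% of all genes higher and 25% lower with IL4. Of 28 genes of IL4 receptor and STAT signalling, 20 were lower with IL4 and 5 higher (median -1.09); the counts were 22 and 4 with medians set equal (median -1.50) and 15 and 10 with totals set equal (median -0.34). Il4ra, the ligand-binding chain of the IL4 receptor, was 1133, 1069.9 and 1033 with IL4, 7953, 7521 and 6303 with LPS and 1063, 1259 and 1331 in controls (-2.74 ± 0.086, adjusted p = 7.7e-19). Il13ra1, which pairs with it to form the second type of receptor, was 403 ± 17.9 against 5154 ± 461 (-3.67 ± 0.083). Il2rg, the common gamma chain of the first type of receptor, was 2059.6 ± 32.9 with IL4, 2846 ± 131 with LPS and 598 ± 16.1 in controls; its difference was -0.47 as deposited, -0.88 with medians and 0.28 with totals set equal, so its direction rests on the scaling. Stat6 was 5458, 5648 and 5441 with IL4 and 5263, 5543 and 5132 with LPS, a difference of 0.055 ± 0.042 that did not pass (adjusted p = 0.3); it was -0.36 with medians set equal and 0.80 with totals set equal, so its direction rests on the scaling. Stat2, Stat3 and Stat5a were lower with IL4, at -3.70 ± 0.062, -2.55 ± 0.057 and -3.08 ± 0.075. Socs3, a feedback inhibitor of STAT3, was 109 ± 9.89 with IL4 and 29224 ± 3256 with LPS (-8.05 ± 0.098). The members higher with IL4 were Irs1, Irs2, Socs5, Socs6 and Il13ra2. Irs2, the adaptor that links the IL4 receptor to PI3 kinase, was 119, 113 and 126 with IL4, 40.8, 62.7 and 30.9 with LPS and 95.4, 127 and 144 in controls. Il13ra2, the decoy receptor of IL-13, was 12.1, 10.9 and 7.54 with IL4 and 0, 0 and 1.19 with LPS, near the detection limit with LPS.

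RNA of most genes of antigen presentation by MHC class II was higher with IL4. Of 12 genes tested, 8 were higher, none was lower and 4 did not pass (median 1.49). With totals set equal 10 were higher, and with medians set equal 7 were higher and 2 lower. H2-Aa, an alpha chain of the class II molecule, was 6869, 6930.3 and 6914 with IL4, 1688, 1671 and 1866 with LPS and 1123, 1203 and 867 in controls (1.99 ± 0.085, adjusted p = 4.3e-16). Cd74, the invariant chain, was 23917 ± 348, 6337 ± 309 and 3093 ± 254 in the same order, and H2-DMa, a peptide exchange chaperone, 1106 ± 19.5, 213 ± 10.7 and 180.1 ± 18.9. Ciita, the master regulator of these genes, did not pass: it was 433, 339.8 and 356 with IL4 and 346, 337 and 331 with LPS, with controls at 63.1, 53.5 and 53.7 (difference 0.15, adjusted p = 0.21). Of 14 costimulatory and checkpoint ligands, 9 were lower with IL4 and 4 higher, beside 25% and 27.5% of all genes. Cd40, the receptor by which T cells help macrophages, was 274 ± 10.8 against 44303 ± 541 (-7.33 ± 0.13), and Cd86, a ligand of CD28, 202 ± 28.3 against 3619 ± 327 (-4.16 ± 0.093). The 2 ligands of PD-1 stood on opposite sides: Cd274, which encodes PD-L1, was 9491, 9687 and 9353 with IL4 and 80106, 78608 and 89615 with LPS (-3.12 ± 0.057), against the positive difference of Pdcd1lg2 given above.

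**Figure D3:**
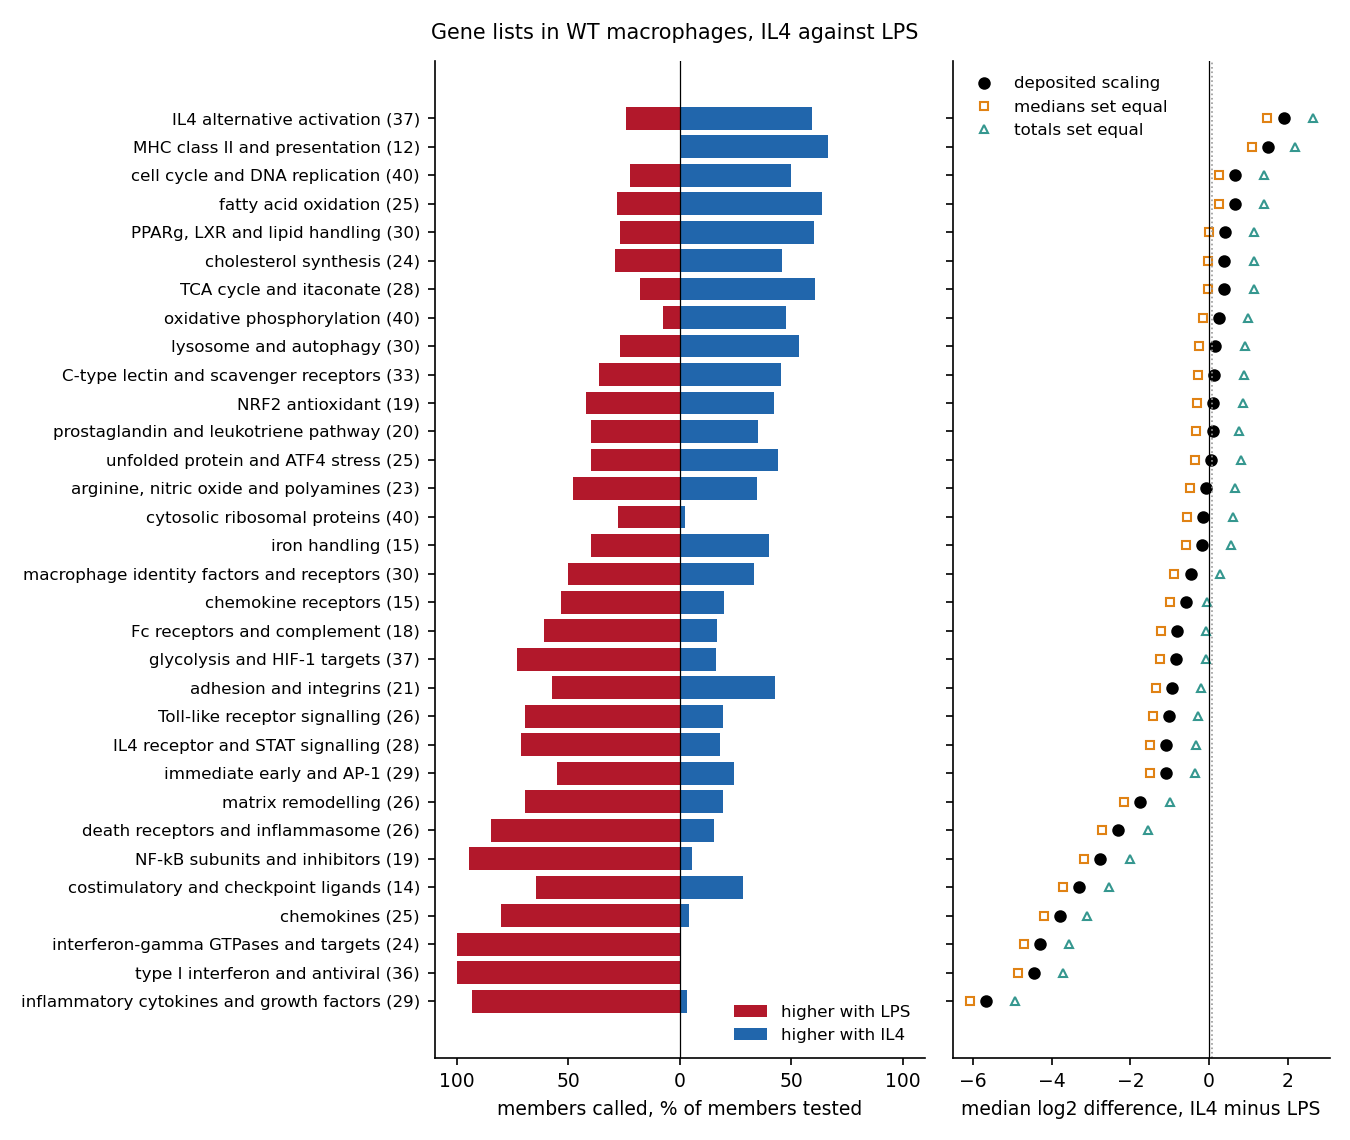
The left panel gives for each gene list (members tested in brackets) the percent of members called higher with LPS (red) and with IL4 (blue), and the right panel the median log2 difference under the deposited scaling (filled) and under 2 other scalings (open), with a dotted line at the median of all genes, 0.08. Lists from macrophage identity up to PPARg have medians whose sign depends on the scaling, while those from the bottom up to chemokine receptors stay below 0 under all 3.

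Some enzymes that share a substrate stood on opposite sides. Arginine is split by arginase or oxidised to nitric oxide, and beside Arg1 above, Nos2 (ENSMUSG00000020826; GRCm38 chromosome 11, 78920787 to 78960254, plus strand), the inducible nitric oxide synthase, was 36.9, 37.2 and 30.1 with IL4 and 64219.8, 61389 and 54884 with LPS (-10.72 ± 0.27, adjusted p = 7.5e-21). Gch1, the first enzyme in making its cofactor, was 550.5 ± 34.6 against 6494 ± 115 (-3.56 ± 0.061). The mitochondrial arginase Arg2 was on the LPS side, at 65.6 ± 2.48 against 181 ± 27.2 (-1.44 ± 0.23). Gatm, which uses arginine to make a creatine precursor, was on the IL4 side, at 9578, 9543 and 9352 with IL4, 1496, 1506 and 1647 with LPS and 1468, 1525 and 1429 in controls (2.62 ± 0.061). Over the 23 genes of arginine, nitric oxide and polyamines the call was 8 higher and 11 lower with IL4, turning to 14 and 7 with totals set equal and 5 and 12 with medians set equal.

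Prostaglandin synthesis showed the same opposition. Ptgs2, the inducible cyclooxygenase, was 138, 115 and 119 with IL4 and 126935, 120203 and 142030.5 with LPS (-10.02 ± 0.26, adjusted p = 2e-20). Ptgs1, the constitutive cyclooxygenase, was 2972, 2897 and 2896 with IL4, 188, 213 and 224 with LPS and 568, 595 and 539.8 in controls (3.81 ± 0.11, adjusted p = 1.8e-19). LPS libraries were below and IL4 libraries above control for Ptgs1, without overlap. Downstream, Ptges, the inducible prostaglandin E synthase, was 52.2 ± 5.10 against 4053 ± 318 (-6.25 ± 0.24), and Tbxas1, thromboxane synthase, 5734 ± 141 against 1185 ± 52.3 (2.27 ± 0.06). Of the 20 genes tested in this pathway 7 were higher and 8 lower with IL4, or 12 and 3 with totals and 7 and 10 with medians set equal.

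Glycolysis and HIF-1 target genes were mostly on the LPS side, with 27 of 37 lower with IL4 and 6 higher (median -0.84); with totals set equal the call was 13 higher and 14 lower, and with medians set equal 3 and 30. Slc2a1, the glucose transporter, was 838 ± 25.6 with IL4 and 6314 ± 612 with LPS (-2.91 ± 0.076), and Hif1a, the hypoxia-inducible factor, 3257 ± 78.8 and 15601 ± 1819 (-2.25 ± 0.077). Among the enzymes that set fructose 2,6-bisphosphate, Pfkfb3 and Pfkfb4 were again opposed. Pfkfb3 was 832, 814 and 854 with IL4 and 24886, 24344 and 25153 with LPS (-4.89 ± 0.055), and Pfkfb4 was 1243, 1261 and 1262 and 408, 364 and 320.1 (1.79 ± 0.13). In the TCA cycle list, 17 of 28 genes were higher with IL4 and 5 lower (median 0.38), which became 6 and 9 with medians and 25 and 2 with totals set equal. Irg1, also named Acod1, makes the antibacterial metabolite itaconate from a TCA cycle intermediate; it was 4110.3, 3983 and 4257 with IL4, 255143, 252528 and 258969 with LPS and 78.7, 63.8 and 171 in controls (-5.96 ± 0.20, adjusted p = 2.6e-18), above control in both. Idh1, cytosolic isocitrate dehydrogenase, was 9923, 9907 and 9541 with IL4, 1602, 1657 and 1833 with LPS and 11308, 11646 and 10273 in controls (2.53 ± 0.086). For oxidative phosphorylation no direction can be given, since 19 of 40 genes were higher and 3 lower as deposited, 4 higher and 16 lower with medians set equal, and 39 higher and none lower with totals set equal.

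**Figure D4:**
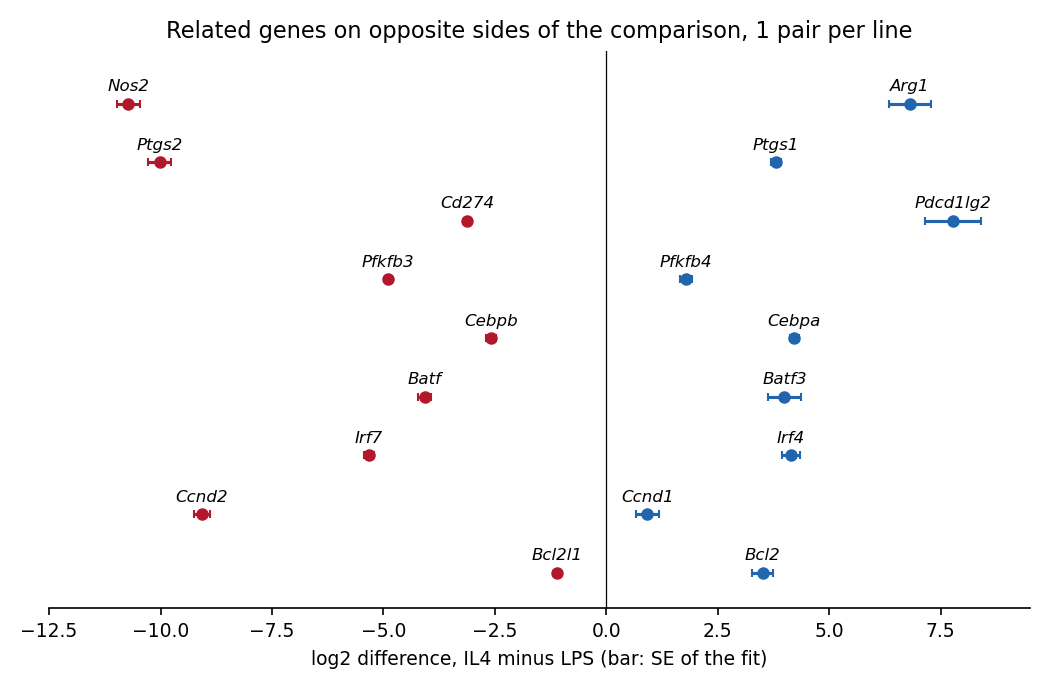
Log2 difference, IL4 minus LPS, with the SE of the fit as bars, for 9 pairs of genes with related functions, 1 pair per line, with the member higher with IL4 in blue and the member higher with LPS in red. Arg1 and Nos2 lie at 6.81 and -10.72 and Ptgs1 and Ptgs2 at 3.81 and -10.02; pairs were chosen after their values were seen.

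Lipid genes were called in both directions, beside 27.5% of all genes higher and 25% lower with IL4. Of 30 genes of PPARg, LXR and lipid handling, 18 were higher with IL4 and 8 lower (median 0.40; 12 and 10 with medians set equal, where the median was -0.013, and 24 and 4 with totals set equal). Lpin1, a phosphatidate phosphatase, was 971, 979 and 1025 with IL4, 20.4, 13.9 and 8.33 with LPS and 1056, 1109 and 1214 in controls (6.11 ± 0.72, adjusted p = 8.2e-08). Pparg, the lipid-sensing receptor that acts with STAT6, was 2287, 2462 and 2265 with IL4, 143, 147 and 154 with LPS and 1862, 1791 and 1890.4 in controls (3.97 ± 0.11, adjusted p = 9.2e-20). For both genes the LPS libraries lay far below the controls while IL4 libraries lay near them. Rxra, its dimer partner, was 1467 ± 64.9 against 149 ± 36.7 (3.32 ± 0.12), and Scd2, a fatty acid desaturase, 2860.3 ± 53.1 against 98.5 ± 19.3 (4.86 ± 0.19). On the LPS side were Msr1, a scavenger receptor for modified lipoproteins (-2.97 ± 0.086), and Olr1, the oxidised LDL receptor (-3.58 ± 0.24). Fatty acid oxidation had 16 of 25 genes higher with IL4 and 7 lower (median 0.65; 10 and 9 with medians and 19 and 3 with totals set equal). Echs1, an enoyl-CoA hydratase, was 2398 ± 33.3 against 444 ± 21.4 (2.43 ± 0.11), while Acsl1, which activates long-chain fatty acids, was 2387 ± 59.2 against 19340.4 ± 809.7 (-3.02 ± 0.046). In cholesterol synthesis 11 of 24 were higher with IL4 and 7 lower, 7 and 11 with medians set equal and 20 and 2 with totals set equal; Dhcr7, its last step, stood apart at 1367, 1367 and 1311 with IL4 and 85.6, 79.8 and 90.4 with LPS (3.97 ± 0.22).

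Iron and lysosomal genes lay on both sides, beside 27.5% of all genes higher and 25% lower with IL4. Tfrc, the transferrin receptor by which cells take up iron, was 60869, 62292 and 58133 with IL4, 6665, 6078 and 7420.1 with LPS and 15029, 15132 and 14213 in controls (3.17 ± 0.087, adjusted p = 4.6e-20). IL4 libraries were above and LPS libraries below control. Lcn2, which withholds iron from bacteria by binding their siderophores, was 24 ± 3.75 against 1253 ± 108 (-5.66 ± 0.18). Lipa, lysosomal acid lipase, was 61286 ± 337 against 30494 ± 1551 (1.01 ± 0.056; 0.60 with medians and 1.76 with totals set equal), and Psap, the precursor of the saposins, 420283 ± 4026 against 257617 ± 10788 (0.71 ± 0.067; 0.30 and 1.45). The lysosome list as a whole had 16 of 30 higher and 8 lower, but 5 and 17 with medians and 28 and 1 with totals set equal. Tfeb, a regulator of lysosomal genes, kept a large difference, at 944, 889 and 987 with IL4, 118, 133 and 75 with LPS and 666, 679.7 and 1011 in controls (3.14 ± 0.20; 2.73 with medians set equal).

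Transcription factors of one family also parted. Cebpa, which directs myeloid differentiation, was 2986, 3202 and 3132 with IL4, 179, 169 and 149.9 with LPS and 2146, 1993 and 2242 in controls (4.22 ± 0.10, adjusted p = 5e-21), while Cebpb was 499 ± 42.9 against 3002 ± 243 (-2.59 ± 0.11) and Cebpd 23.9 ± 0.340 against 635 ± 58.9 (-4.67 ± 0.24). Of the AP-1 family, Batf3 was 215, 169 and 180.0 with IL4 and 12.2, 10.8 and 9.52 with LPS (4.0 ± 0.37), Batf 84.4 ± 2.92 against 1447 ± 224 (-4.07 ± 0.14) and Batf2 125 ± 2.02 against 3752 ± 179 (-4.90 ± 0.085). Irf4, which with STAT6 acts in alternative activation, was 968, 1011 and 926 with IL4, 44.8, 46.8 and 73.8 with LPS and 84.6, 76.7 and 58.6 in controls (4.15 ± 0.20), and Irf7, the amplifier of interferon, 596 ± 25.5 against 23917 ± 2009.6 (-5.32 ± 0.11). Egr2 was 4633 ± 136, 661 ± 24 and 1287 ± 10.9 in IL4, LPS and control cells (2.81 ± 0.069). Over the 29 immediate early and AP-1 genes, 16 were lower with IL4 and 7 higher (17 and 3 with medians, 14 and 11 with totals set equal). Among 30 macrophage identity factors and receptors, 15 were lower and 10 higher with IL4, turning to 11 and 14 with totals and 17 and 5 with medians set equal. Myc, a regulator of growth, was 216, 218 and 218 with IL4, 220.1, 179 and 145 with LPS and 40.4, 27.1 and 36.6 in controls, and the difference did not pass (adjusted p = 0.38).

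Cell cycle and DNA replication genes were 20 of 40 higher with IL4 and 9 lower (median 0.66), beside 27.5% and 25% of all genes. The counts were 12 and 9 with medians and 27 and 4 with totals set equal. The helicase subunit Mcm2 was 260.0, 277 and 288 with IL4, 48.9, 41.1 and 30.9 with LPS and 199, 195 and 222 in controls (2.76 ± 0.17), so that IL4 libraries were at or above control and LPS libraries below. On the other side, cyclin D2 (Ccnd2) was 23.6, 21.2 and 21.7 with IL4, 12388, 12438 and 12526 with LPS and 25.3, 27.1 and 24.4 in controls (-9.07 ± 0.18, adjusted p = 1e-22), and the cell cycle inhibitor Cdkn1a was 1820.2 ± 28.4 against 61141 ± 1208 (-5.07 ± 0.049). Mki67, the proliferation antigen, was 211 ± 18.5 against 2287 ± 64.6 (-3.44 ± 0.09), while Top2a, the topoisomerase of dividing cells, was on the other side at 215 ± 12.1 against 135 ± 11.2 (0.67 ± 0.13), which was 0.26 with medians and 1.41 with totals set equal.

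Lists of surface receptors and of matrix genes held members on both sides, beside 27.5% of all genes higher and 25% lower with IL4. Of 33 C-type lectin and scavenger receptors, 15 were higher and 12 lower with IL4, which became 9 and 17 with medians and 20 and 9 with totals set equal. Clec7a, the receptor for fungal beta-glucan, was 25769 ± 274 against 4486 ± 299 (2.52 ± 0.07), and Clec4e, a receptor for mycobacterial glycolipid, 3799.9 ± 200.4 against 121229 ± 11608 (-4.99 ± 0.085). Among 18 Fc receptors and complement genes, 11 were lower with IL4 and 3 higher (14 and 1 with medians, 8 and 6 with totals set equal), with Fcgr1, the high-affinity IgG receptor, at 1234 ± 41.8 against 19846 ± 405 (-4.01 ± 0.055). C3, the central complement protein, was 25702, 25371 and 25159 with IL4 and 46214, 45626 and 43016 with LPS, both above the controls at 577, 683 and 574. Its call was lost with totals set equal, where the difference was -0.075. Of 21 adhesion genes and integrins, 9 were higher and 12 lower (5 and 13 with medians set equal). Itgax, the integrin chain CD11c, was 18543, 18688 and 18266 with IL4, 1699.9, 1614 and 1486 with LPS and 1436, 1493 and 1375 in controls (3.53 ± 0.064, adjusted p = 1.5e-23), and Icam1, a ligand of leukocyte integrins, 1800.4 ± 75.1 against 89575 ± 4225 (-5.64 ± 0.058). Of 26 matrix remodelling genes, 18 were lower and 5 higher with IL4 (median -1.75). Mmp13, a collagenase, was 350.3 ± 21.9 against 37859 ± 4933 (-6.75 ± 0.10), and Fn1, fibronectin, was on the IL4 side at 2137 ± 31.2 against 589.7 ± 15 (1.86 ± 0.071). Of 26 death receptor and inflammasome genes, 22 were lower and 4 higher with IL4 (median -2.31). Nlrp3, the inflammasome sensor, was 455 ± 8.31 against 31249 ± 343 (-6.10 ± 0.056), and the survival factor Bcl2 was on the IL4 side at 307, 327 and 298 with IL4, 24.5, 32.9 and 22.6 with LPS and 108, 104 and 149 in controls (3.51 ± 0.23).

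Lists of housekeeping and stress functions held members called in both directions, beside 27.5% of all genes higher and 25% lower with IL4. Genes of the unfolded protein response and the ATF4 pathway were 11 higher and 10 lower of 25 with IL4 (8 and 14 with medians set equal, 15 and 8 with totals set equal). Within that list Pdia4, a disulfide isomerase of the endoplasmic reticulum, was 6079.6 ± 136 against 1049.7 ± 76.1 (2.54 ± 0.078), and Asns, the asparagine synthetase raised by ATF4, 509.6 ± 30.5 against 3138 ± 124 (-2.62 ± 0.081). NRF2 antioxidant genes were 8 higher and 8 lower of 19 (5 and 10 with medians, 11 and 7 with totals set equal), and iron handling genes 6 and 6 of 15 (4 and 8, and 10 and 4). Slc7a11, the cystine transporter, was 266 ± 19.7 against 3590.1 ± 126 (-3.75 ± 0.097). Of 40 cytosolic ribosomal protein genes, which have near-identical copies that make their counts uncertain, 1 was higher and 11 lower with IL4 as deposited, 1 and 31 with medians set equal, and 33 and none with totals set equal.

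Beyond the lists, the largest differences toward IL4 among genes with a mean of at least 100 included Cnr2, Ksr2, Arhgap19 and Chek2. Cnr2, the cannabinoid receptor of immune cells, was 1684, 1659 and 1659 with IL4, 4.08, 4.43 and 8.33 with LPS and 1131, 1059.6 and 1031 in controls (8.04 ± 0.37, adjusted p = 1.8e-15). Arhgap19, a GTPase-activating protein, was 3676, 3726 and 3586, 36.7, 20.9 and 27.4 and 5135, 4988 and 4643 in the same order (7.0 ± 0.12, adjusted p = 4.8e-24). For both genes control and IL4 libraries were high and LPS libraries low, which differs from Arg1 or Retnla, where only IL4 libraries were high. Chek2, a DNA damage kinase, had the same order, at 560.0 ± 49.7, 8.35 ± 7.44 and 437 ± 19.7. Toward LPS, Ifi205, an interferon-inducible member of the p200 family with close paralogs, was 16.4 ± 1.97 against 34597 ± 2829 (-10.96 ± 0.29), and Lipg, endothelial lipase, 2.80 ± 1.84 against 5608 ± 143 (-10.65 ± 0.52).

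Some genes moved away from control in opposite directions, with no overlap of any pair of groups. Only the 5 genes in each direction whose smaller difference from control was largest are named here. With IL4 above and LPS below control these were Ksr2, Pald1, Ldlrad3, Tbc1d16 and Tanc2. Ksr2, a scaffold of the MAP kinase pathway, was 296, 284 and 264 with IL4, 16.7, 23.9 and 31.8 in controls and 0, 1.27 and 3.57 with LPS. Its differences from control were 3.53 with IL4 and -3.48 with LPS. Ldlrad3, an LDL receptor domain protein, was 1865, 1888 and 1816 with IL4, 586, 577 and 493 in controls and 85.6, 118 and 114 with LPS (1.75 and -2.38). In the reverse order were Prrg4, Mycl, Plcl1, Stat4 and Itga9. Mycl, a MYC family member, had no read in any IL4 library and was 1.62, 1.29 and 7.33 in controls and 603, 582 and 558 with LPS, at least 880.1-fold higher with LPS than with IL4. Stat4, the transducer of IL-12, was 4.61, 12 and 8.48 with IL4, 27.5, 36.1 and 22.0 in controls and 118, 107 and 127 with LPS (-1.71 and 2.03). The 2 differences of a gene share its control libraries.

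Whether the IL4 and LPS states differ in the same way without CITED2 was tested as the interaction of genotype with the difference. The libraries matched their labels: Cited2 was 11.7 ± 2.95 in KO IL4 and 48.7 ± 39.9 in KO LPS cells, against 1117, 1207 and 1120.2 in WT IL4, 3139, 3468 and 4174 in WT LPS and 2298, 2179 and 2144 in WT control libraries. In WT cells Cited2 was therefore itself lower with IL4 than with LPS (-1.64 ± 0.34, adjusted p = 0.0002). The interaction was called for 1770 of 18637 genes (9.5%), 1129 positive (6.06%) and 641 negative (3.44%); without KO LPS replicate 1, which held 1478507 reads, 1979 genes (10.6%) were called. A positive value means that IL4 minus LPS was higher in KO than in WT.

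Type I interferon and antiviral genes had a smaller gap between IL4 and LPS in KO cells: the interaction was positive and called for 34 of the 36 and negative for none, also without KO LPS replicate 1, with a median of 1.41 beside 0.082 over all genes. Rsad2 was 4192, 3541 and 3999.9 in KO IL4 libraries against 525, 541 and 529 in WT IL4 libraries, and 715113, 796663 and 776929 in KO LPS against 465551, 441718 and 509556 in WT LPS libraries. Both KO groups were above their WT counterparts, the IL4 groups by the larger factor, and the interaction was 2.18 ± 0.13 (adjusted p = 1.6e-11). Ifit2 was 19369, 15695 and 17137 in KO IL4 and 1375, 1452 and 1526 in WT IL4 libraries (interaction 2.69 ± 0.18, adjusted p = 2.7e-10), and Slfn1, a Schlafen family gene, 1119, 984 and 970.2 and 54.2, 66.4 and 53.7 (3.35 ± 0.24, adjusted p = 8.5e-10). In the interferon-gamma list the interaction was positive for 17 and negative for 3 of 24.

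In the IL4 alternative activation list the interaction was negative for 18 of 37 and positive for none (21 and 1 without KO LPS replicate 1), with a median of -0.64. Retnla was 20.1, 26.0 and 16.0 in KO IL4 libraries and 198, 215 and 209 in WT IL4 libraries, with no overlap, and the interaction was -3.52 ± 0.49 (adjusted p = 1.6e-05). Chil3 (9422 ± 792 in KO and 14699.9 ± 246 in WT IL4 cells; interaction -0.45, adjusted p = 0.046) and Mrc1 (20664 ± 2020.4 and 28367 ± 1114; -0.38, adjusted p = 0.028) followed. Arg1 did not show in the interaction although its IL4 level differed: it was 468, 420.3 and 441 in KO IL4 and 3908, 4078 and 3539 in WT IL4 libraries, but also 0, 1.23 and 2.50 in KO LPS and 28.5, 28.5 and 45.2 in WT LPS libraries, so that the gap between IL4 and LPS was 7.80 in KO and 6.81 in WT cells (interaction 1.00, adjusted p = 0.42). A read in KO LPS replicate 1 was worth a value of 23.6, so its 0 for Arg1 says little beside the WT LPS values. The gap of Arg1 in KO cells thus rests on values near the floor. Among inflammatory markers Nos2 had a positive interaction (1.42 ± 0.38, adjusted p = 0.016), with 115, 141 and 124 in KO IL4 libraries. Il6 was 30559 ± 2896 in KO and 10719.7 ± 689.8 in WT LPS cells, and its interaction of -2.07 passed only without KO LPS replicate 1 (adjusted p = 0.058 with it and 0.049 without). Il23a, a subunit of interleukin 23, was 425, 405 and 483 in KO LPS and 36.7, 31.7 and 28.6 in WT LPS libraries, with no read in any WT IL4 library (interaction -3.50 ± 0.56, adjusted p = 0.0001).

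**Figure D5:**
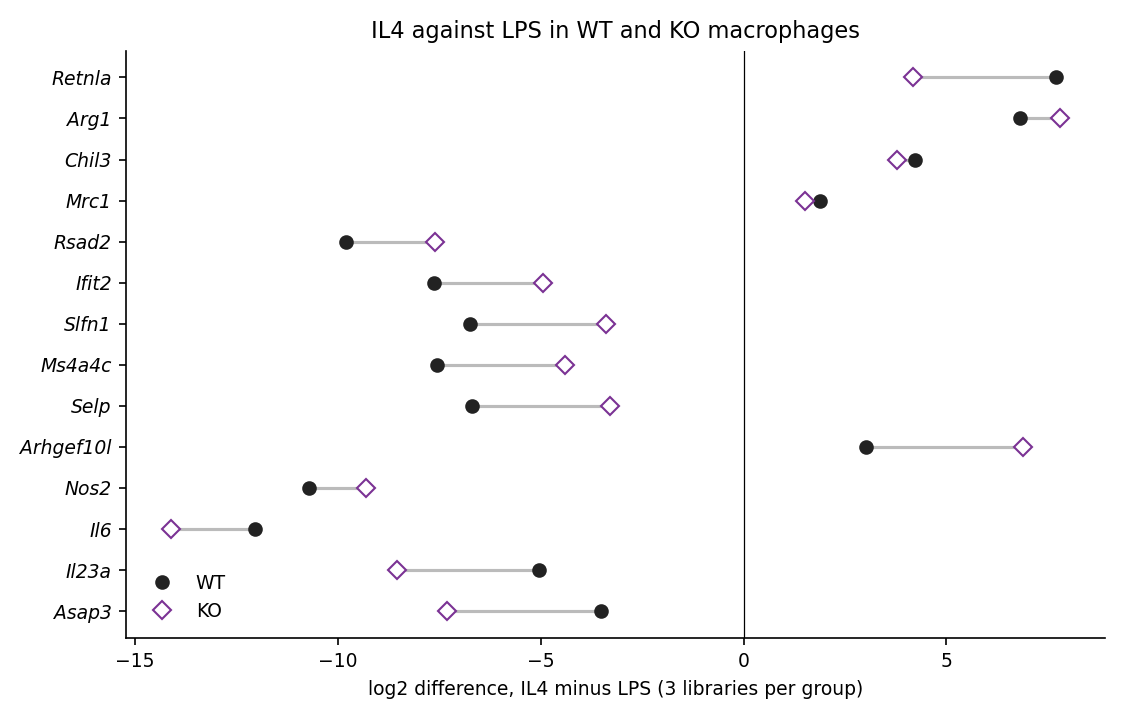
Log2 difference, IL4 minus LPS, in WT (filled circles) and KO macrophages (open diamonds) for 14 genes, with 3 libraries in each group. Rsad2, Ifit2, Slfn1 and Ms4a4c lie closer to 0 in KO than in WT cells, Retnla lies closer to 0 in KO as well (4.18 against 7.70), and Il23a and Asap3 lie farther from 0.

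Markers of other cells that a bone marrow culture can hold were followed beside these results. Neutrophil and granulocyte precursor markers were lower with IL4 for 10 of 15 tested and higher for 1; their summed value was 5229.9 to 5569 in IL4, 9530.1 to 10169 in LPS and 3471 to 3775 in control libraries, with Ly6g at 0 reads. Lcn2, counted among iron genes above, belongs to this list, and the part of such cells in its difference was not tested. B cell markers summed to 819 to 932 in IL4 and 459 to 554 in LPS libraries, although Cd79a, Ighd, Blk and Vpreb3 had no read in these. Of 11 tested, 2 were higher and 1 lower with IL4. Mast cell and basophil markers summed to 84.7 to 95.2 in IL4, 1221 to 1341 in LPS and 363 to 396 in control libraries. Their median difference was -0.68 and the lowest -7.09, so the sum does not stand for all members. Of 8 tested, 3 were lower with IL4 and none was higher, while Cma1, Mcpt4 and Tpsb2 had no read. The summed T and NK cell value, 11339.9 to 11683 in IL4 and 6705 to 7790.2 in LPS libraries, was mostly Il7r, while Cd3e was at 1.01 ± 0.756 and 0.608 ± 0.595. Fibroblast markers summed to 659.5 to 667 in IL4 and 774 to 868 in LPS libraries, and dendritic cell markers to 2609 to 2831 and 7126 to 7597, mostly Bst2. Erythroid and megakaryocyte markers summed to 1021 to 1074 in IL4 and 495 to 575 in LPS libraries, and 6 of 12 had no read.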

How the data were processed

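Gene expression was measured by RNA sequencing of total RNA, with 24 libraries in 8 groups of 3. The authors deposited a table of signal, read counts per gene scaled by 1 factor per library. This was inferred from the numbers, since 100% of them were whole multiples of a library's smallest step within 0.05 reads. The labels' protocols do not describe this scaling. The submitters' processing notes name TopHat2 2.2.1, Cufflinks 2.2.1 and Cuffdiff and the builds mm10 and GRCm38; strand handling is not given in the sources used here.

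Groups came from the titles and genotype and treatment labels. Genes reaching a value of 1 in 3 or more of the 24 libraries were kept, and log2(value + 1) was fitted with limma 3.58.1 (R 4.3.3; 1 mean per group, mean-variance trend, 16 residual degrees of freedom, two-sided). The pseudocount of 1 understates differences of low genes. A gene was called at an adjusted p below 0.05 (Benjamini-Hochberg over all 18637 genes). The fit was tested on simulated data in which all genes and groups had the same spread beyond counting error. The libraries here differ from that, so the simulation does not bear on the pooled spread or the scaling. Reads recovered from the table were tested with edgeR 4.0.16 and DESeq2 1.42.0 as alternatives, beside other pseudocounts (0.5 and 10), filters, scalings, library weights, a replicate block and leaving out libraries; equal library totals were added after the sums of the values had been seen. Motifs were searched in the RefSeq promoter table of GRCm38.p6, and positions of genes came from GENCODE M21, which held 42548 of the 43629 identifiers.

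Named genes followed a rule. It took 12 markers and the 8 largest differences in each direction among called genes without overlap and with a mean of at least 100. The 5 largest differences in value in each direction were added. Among genes with controls between the treatments, it took the 5 in each direction whose smaller difference from control was largest. Further genes were up to 4 members per list by p, members a sentence turns on, and the 5 largest interactions of either sign. Predicted genes and pseudogenes were left out. The comparison, the lists and the rule were chosen with earlier results of these data known. A fold against a group without reads was taken against 3 reads over that group. Some results are not reported here.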

Additional observations from a re-analysis of the deposited data

Results flagged for a closer look

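The difference between IL4 and LPS differed between WT and KO macrophages for the 15 genes listed here, by the interaction test of limma with Benjamini-Hochberg adjustment. Many were picked as the 5 largest called interactions of either sign, so 15 is not a count of all genes that passed. Over all 18637 genes the interaction was called for 1770 (9.5%). Values are log2, KO minus WT, with 3 libraries per group; groups of 3 were not searched for outlying libraries. The positive values were Arhgef10l at 3.87 (adjusted p = 0.00017), Selp at 3.39 (0.00058), Slfn1 at 3.35 (8.5e-10), Gvin1 at 3.28 (0.00048), Ms4a4c at 3.13 (4.3e-11), Ifit2 at 2.69 (2.7e-10), Rsad2 at 2.18 (1.6e-11) and Nos2 at 1.42 (0.016). The negative values were Pax4 at -4.61 (0.0013), Asap3 at -3.8 (9.9e-06), Retnla at -3.52 (1.6e-05), Il23a at -3.5 (0.0001), Rnf125 at -3.47 (0.003), Chil3 at -0.446 (0.046) and Mrc1 at -0.378 (0.028). All 15 passed without KO LPS replicate 1 as well, where Arhgef10l fell to 2.88 and the others moved by less.

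Some of these genes had groups at or near 0. In KO LPS replicate 1 a read was worth a value of 23.6, so a 0 there does not exclude a level of that size. Arhgef10l was 0, 9.23 and 5.01 in KO LPS and 106, 90.5 and 73.8 in WT LPS libraries, while Gvin1 had no read in KO IL4 libraries and was 0, 1.23 and 0 in KO LPS against 416, 417 and 486 in WT LPS libraries. Pax4 had no read in any IL4 library of either genotype and was 189, 101 and 129 in KO LPS and 0, 11.4 and 13.1 in WT LPS libraries. Selp, which encodes P-selectin, was 47.3, 70.7 and 53.8 in KO LPS and 294, 241 and 268 in WT LPS libraries. Ms4a4c was 501, 446 and 417 in KO IL4 and 44.4, 43.5 and 40.5 in WT IL4 libraries, and 8907, 9559.9 and 10708 in KO LPS and 7374, 7759 and 9561 in WT LPS libraries. Asap3 was 378, 237 and 283 in KO LPS and 65.2, 63.3 and 54.7 in WT LPS libraries.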

How the results depend on the processing

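Over 29 alternatives, the count of genes called between IL4 and LPS in WT cells, 9774, ranged from 9060 (without WT IL4 replicate 3) to 11737 (equal library totals). With edgeR on recovered reads it was 10669 (5788 higher and 4881 lower with IL4) and with DESeq2 9941 (5170 and 4771). The scaling moved the counts by direction most. With medians set equal, 2956 genes were higher with IL4, and at least a 2-fold difference was called for 1706 higher and 3828 lower. With equal totals, 9338 were higher and 2399 lower, 6158 and 1564 at 2-fold, and 1793 genes had a positive interaction with genotype. Library weights gave 1038 negative interactions. Leaving out 1 library at a time gave 4666 to 5807 genes higher and 4366 to 5007 lower with IL4 (2537 to 3167 and 2415 to 2722 at 2-fold), and 1410 to 2452 interactions, of which 916 to 1734 positive, the most without KO LPS replicate 2, and 494 to 838 negative. Of 204 other counts of genes compared, all were within 1.5 times the value given. Named genes that changed direction were Stat6 at -0.36, Tlr4 at -0.021 and Ciita at -0.26 with medians set equal, and Cd68 at 0.62, Klf4 at 0.16 and Il2rg at 0.28 with equal totals; the cause lies in the shift of all genes that these scalings apply. Clec10a lost its call with medians set equal. Cish, with an adjusted p of 0.020 by limma, lost it under 6 alternatives. With replicate number as a replicate block, 9739 genes were called in the fit of 24 libraries and 9071 in that of 6, and 1675 interactions. The replicate numbers showed no regular pairing of the samples. Same-numbered IL4 and LPS libraries deviated together with r of 0.082, -0.10 and -0.11 over 10078 genes. Only IL4 replicate 1 and LPS replicate 1 correlated best with their own number. Deviations from a mean of 3 libraries are tied to each other, so these values cannot decide whether samples were paired. Depth limits low genes in WT LPS replicate 1, at 7921412 reads, and more so in KO LPS replicate 1, at 1478507. Treatment times and the origin of replicates are not given in the sources used here, and values near a difference of 0 rest on the scaling.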

Other observations

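Some genes had reads with one of the treatments and none with the other. In 11 genes each LPS library had at least 10 reads and no IL4 library had any, and in 19 the reverse held. This search was made after the data had been seen. A read was worth a value of 4.08 in LPS replicate 1, and 0.633 and 1.19 in LPS replicates 2 and 3. In the IL4 libraries it was worth 0.572 to 0.942. The cut in reads was thus stricter in value for LPS replicate 1, so the counts of 11 and 19 cannot be compared with each other. Chil4, a near-identical relative of Chil3 whose counts are therefore uncertain, was among the second set at 20.3 ± 6.14 with IL4. Cldn11, a tight junction protein, was 78.4, 91.5 and 87.6 with IL4 and at least 76.3-fold higher than with LPS, with controls at 1.03 ± 1.27. St8sia1, which makes the ganglioside GD3, was 45.0, 46.9 and 48.0 with IL4 (at least 41.4-fold) and Kcnd3, a potassium channel subunit, 37.5, 36.0 and 42.4 (at least 34.3-fold), and neither had a read in controls. Prickle2 and Palm3 differed from these, since their controls, at 18.3 ± 3.64 and 38.2 ± 5.11, were also read. On the LPS side, Il19, a cytokine of the interleukin 10 family, was 261, 243 and 287 with LPS and at least 399-fold higher than with IL4, with controls at 0.574 ± 0.543. Fam3b was 73.4, 86.1 and 97.6 (at least 129.8-fold) and Unc80 57.1, 75.3 and 90.4 (at least 112.5-fold), both without a read in controls. Art3 was 146.8, 317 and 65.5 with LPS, so its replicates spread widely.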
